A study of Homo sapiens with 3 samples.

Results

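Y RNAs are small non-coding RNAs whose windows were examined here among RNAs bound by a mutant DIS3L2. The 47 windows were those of the miscellaneous RNA (misc_RNA) class whose gene symbol was Y_RNA or began with RNY, out of 61 windows of that class and 1533 in all. Each lay in a different gene, so there were 47 genes. The symbol was Y_RNA for 34 of them, a numbered RNY4 pseudogene for 12 and RNY3P2 for 1, and genes that share the symbol Y_RNA are told apart by their Ensembl identifier. The windows were spread over 18 chromosomes, and all 47 lay on the strand of the annotated Y RNA gene.

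The 3 libraries formed 1 group of HEK293 cells, a human embryonic kidney line, that overexpressed DIS3L2 D391N. Per the methods, the line was HEK293T-Rex with a stably integrated, inducible and Flag-tagged transgene, and every library carried it, so there was no control group. CLIP (crosslinking and immunoprecipitation) recovered the RNAs crosslinked to the protein. For each 50 nt window the deposited table gave the number of reads that mapped to 1 place (unique reads) and how many of them the authors called uridylated (U+), for Ts at the end that did not match the genome. For RNAs made by RNA polymerase III, among them Y RNAs, the study states as a limit that added Us could not be told apart from Us encoded at the 3′ end, so a U+ fraction here is the share of reads so called and not a measured share of added tails. The authors had summed both counts over the 3 libraries. The spread between replicates is therefore unknown, no value has an SD, and no test over samples could be made.

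A Y RNA is transcribed by RNA polymerase III and folds so that its 5′ and 3′ ends pair into a long stem around an open loop. The Ro60 protein binds the stem and the La protein binds the run of uridines at the 3′ end with which RNA polymerase III stops. Y RNAs are known for roles in DNA replication and in the quality control of structured RNA, and their genes have given rise to many copies, most of them retroposed pseudogenes. Terminal uridylyltransferases add uridines to the 3′ ends of RNAs, and DIS3L2 degrades RNAs with such tails from the 3′ end. The D391N form binds them and is catalytically inactive.

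The canonical human genes RNY1, RNY3, RNY4 and RNY5 lie together on chromosome 7, and 0 of the 1533 windows overlapped any of them. More windows were selected by the study than the table used here holds, and the part of this in the 0 was not tested. Their sequences were used as the reference for the 47 copies. All 47 copies were closest to RNY4 or RNY3. RNY4 is printed from the genome, 5′ to 3′, with the terminal T run that RNA polymerase III reads as its stop in capitals.
RNY4 (GRCh37 chr7:148660407-148660502, plus strand): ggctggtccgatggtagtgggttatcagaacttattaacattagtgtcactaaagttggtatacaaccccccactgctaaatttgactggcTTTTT
The T run was 5 nt in RNY4 and 4 nt in RNY3, and the 20 nt past the annotated end held 4 A in RNY4 and 1 A in RNY3.

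The 3′ ends of the copies vary in the length of the encoded T run and in what follows it. The next lines show the last 30 nt of the annotated copy and 10 nt past it, for copies closest to RNY4, with the encoded T run in capitals and from the longest run to none. They are copies of RNY4 among the 10 windows with most uridylated reads, to which RNY4P11, with a run of 5 nt, was added. RNY4P25, also among those 10, with a run of 2 nt and a U+ fraction of 46.2%, is not printed.
RNY4P11 (GRCh37 chr20:18309717-18309756, plus strand): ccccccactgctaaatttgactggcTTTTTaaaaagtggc
Y_RNA ENSG00000201239 (GRCh37 chr17:80375168-80375207, plus strand): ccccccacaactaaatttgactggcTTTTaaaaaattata
RNY4P6 (GRCh37 chr11:116886679-116886718, plus strand): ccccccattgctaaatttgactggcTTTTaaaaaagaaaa
RNY4P3 (GRCh37 chr16:50132240-50132279, plus strand): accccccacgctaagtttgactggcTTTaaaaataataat
RNY4P7 (GRCh37 chr2:128556467-128556506, minus strand): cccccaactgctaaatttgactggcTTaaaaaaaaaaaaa
Y_RNA ENSG00000222467 (GRCh37 chr2:122360639-122360678, minus strand): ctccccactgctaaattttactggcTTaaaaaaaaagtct
Y_RNA ENSG00000200141 (GRCh37 chr9:34194800-34194839, minus strand): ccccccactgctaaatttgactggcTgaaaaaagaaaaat
RNY4P31 (GRCh37 chr13:61390821-61390860, minus strand): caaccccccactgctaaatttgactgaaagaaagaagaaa
The same stretch follows for copies closest to RNY3, which include the highest and the lowest U+ fractions among deep windows.
Y_RNA ENSG00000202382 (GRCh37 chr2:85594780-85594819, plus strand): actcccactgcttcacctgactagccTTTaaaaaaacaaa
Y_RNA ENSG00000200855 (GRCh37 chr11:107955712-107955751, plus strand): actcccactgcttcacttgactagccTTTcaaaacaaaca
Y_RNA ENSG00000200118 (GRCh37 chr3:169962640-169962679, plus strand): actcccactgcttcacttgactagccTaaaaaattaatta
Y_RNA ENSG00000200742 (GRCh37 chr14:56118323-56118362, plus strand): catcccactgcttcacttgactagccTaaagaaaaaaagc
Y_RNA ENSG00000252919 (GRCh37 chr14:50058944-50058983, minus strand): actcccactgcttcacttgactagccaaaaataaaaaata
The 3′ arm before the T run is nearly the same in each set, and what follows the run is rich in A.

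The U+ fraction, the share of unique reads that were uridylated, was 68.1% in the median of the 47 windows, with quartiles of 56.7 and 82.9% and a range from 25.3 to 98.2%. Over all 1533 windows the median was 70.2%, so the Y RNA windows lay near the middle of the table. The authors' selection favoured high fractions, but 36 of the 1533 windows lay under 25%, down to 0.719%. A Y RNA window held a median of 151 unique reads (range 24 to 1324), against 73 over all windows. Together the 47 windows held 7898 uridylated among 12075 unique reads, 65.4% (95% Wilson interval 64.6 to 66.3%). This and every other interval covers counting error only, since reads copied by PCR from 1 molecule are not independent.

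The interval of the U+ fraction lay above 50% in 32 of the 47 windows, or 68.1%, against 67.3% of all windows. It lay below 50% in 5 of the 47, or 10.6%, against 9.07% of all windows, and it spanned 50% in the other 10. Both shares were close to those of the whole table. The 5 windows below 50% were RNY4P11 and ENSG00000200171, both closest to RNY4, and ENSG00000200855, ENSG00000202382 and ENSG00000200742, all closest to RNY3.

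**Figure D1:**
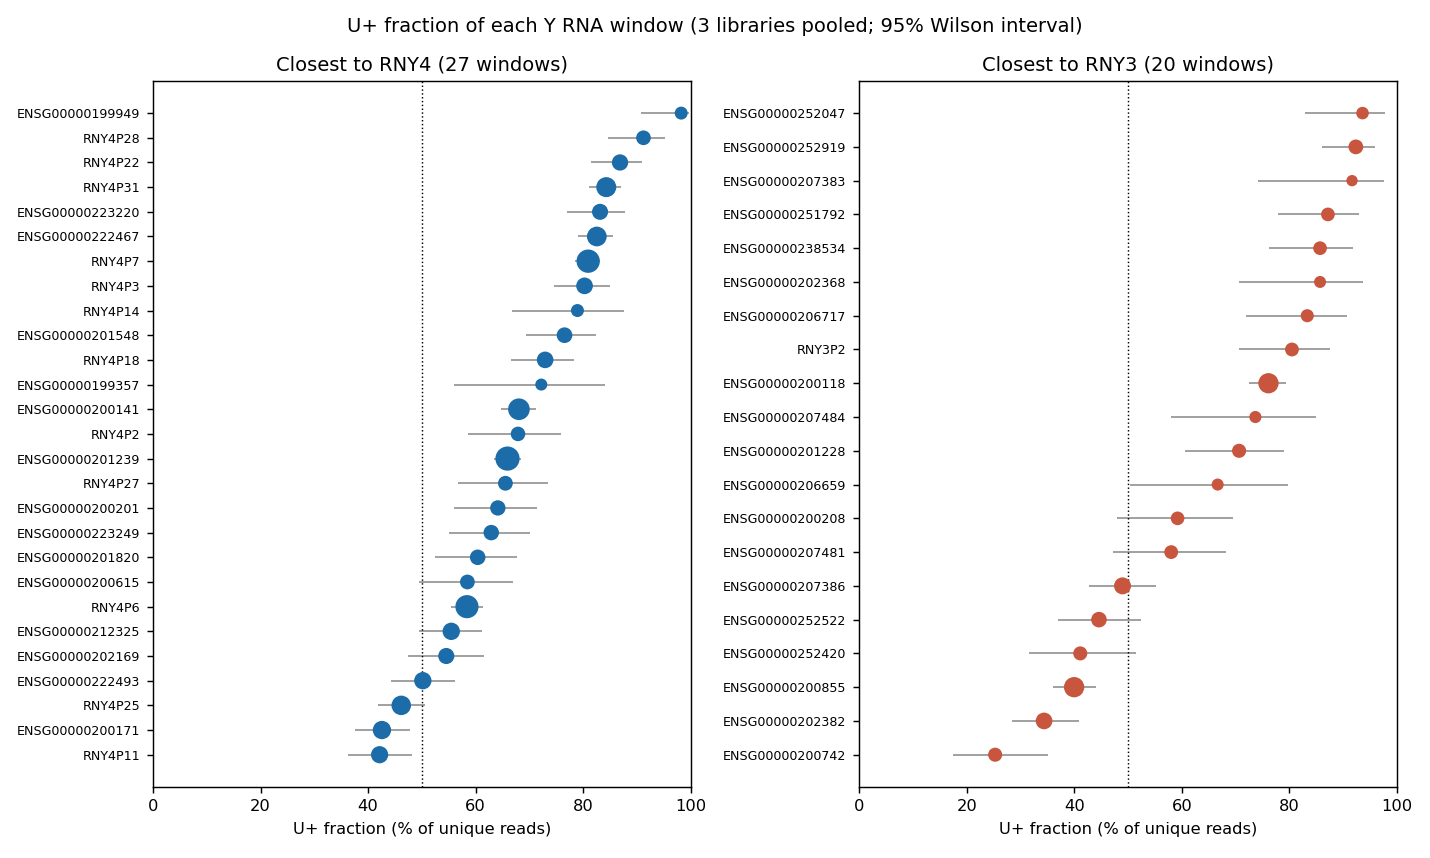
U+ fraction of each of the 47 Y RNA windows (horizontal axis, percent of unique reads), split by the canonical gene to which the copy is closest; bars are 95% Wilson intervals for counting error, larger points have more unique reads and the dotted line marks 50%. The fractions run from 42.1 to 98.2% among the 27 copies of RNY4 and from 25.3 to 93.6% among the 20 copies of RNY3.

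A few copies held most of the uridylated reads. The 10 windows with most uridylated reads held 4915 of the 7898, or 62.2%, and the leading 3 held 30.6%. RNY4P7, in an intron of WDR33 on that gene's strand (chr2:128556450-128556499), had 909 uridylated among 1123 unique reads, a U+ fraction of 80.9% (78.5 to 83.1%). ENSG00000201239, on chromosome 17 at 80375150 to 80375199 and antisense to an intron of OGFOD3, had the most unique reads of the set, 1324, of which 873 or 65.9% (63.3 to 68.4%) were uridylated. RNY4P6, antisense to an intron of SIK3, had 633 of 1084, or 58.4% (55.4 to 61.3%). The counting intervals of these 3 windows did not overlap, so copies of RNY4 of similar depth differed by more than counting error, although the spread between libraries is unknown.

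Among the other leading windows, ENSG00000200141, antisense to UBAP1, had 537 uridylated of 789 unique reads (68.1%), and RNY4P31, outside protein-coding genes, had 462 of 548 (84.3%). ENSG00000222467 in CLASP1 had 421 of 510 (82.5%), RNY4P25, antisense to POGZ, had 223 of 483 (46.2%), and RNY4P3 in HEATR3 had 179 of 223 (80.3%). These 5, like the leading 3, were closest to RNY4. The remaining pair of the leading 10 were copies of RNY3: ENSG00000200118 in PRKCI had 443 of 582 (76.1%) and ENSG00000200855 in CUL5 had 235 of 588 (39.97%). Windows of like depth could differ widely, since the last pair had nearly equal numbers of unique reads and fractions whose intervals, 72.5 to 79.4% and 36.1 to 43.98%, lay far apart.

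Of the 30 Y RNA windows that held at least 100 unique reads, the highest fractions were in ENSG00000252919, a copy of RNY3 in RPS29 (109 of 118, 92.4%), and in RNY4P28 (104 of 114, 91.2%) and RNY4P22 (172 of 198, 86.9%). The lowest were in ENSG00000202382, a copy of RNY3 in ELMOD3 (77 of 224, 34.4%), ENSG00000200855 (39.97%) and RNY4P11 (110 of 261, 42.1%). The copies at both ends of the range thus included both families.

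The authors kept windows by the posterior probability that the frequency of uridylation exceeded 0.25, as a product across libraries. Recomputed from the pooled counts, this probability was at least 0.95 in 46 of the 47 windows. The exception was ENSG00000200742, a copy of RNY3 in KTN1 (chr14:56118300-56118349), with 23 uridylated of 91 unique reads, 25.3% (17.5 to 35.1%) and a probability of 0.556. The product over libraries could not be recomputed from pooled counts.

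Every copy was closest to RNY4 or RNY3 by alignment. Of the 47, 27 were closest to RNY4 (57.4%) and 20 to RNY3 (42.6%), and 0 were closest to RNY1 or RNY5. The 12 numbered RNY4 pseudogenes and RNY3P2 went to the gene of their name, and the 34 genes called Y_RNA were divided into 15 closest to RNY4 and 19 closest to RNY3. Among the 859 Y RNA genes of GENCODE release 44 on GRCh37, 111 (12.9%) were closest to RNY4, 403 (46.9%) to RNY3, 336 (39.1%) to RNY1 and 6 to RNY5. A window was thus listed for 24.3% of the genes closest to RNY4, 4.96% of those closest to RNY3 and 0 of those closest to RNY1. This difference was not tested, since the copies are related in sequence and the listing rests on unique mapping.

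The 27 copies of RNY4 were 79.2 to 95.8% identical to it (median 87.5%), and the 20 copies of RNY3 were 63.7 to 93.1% identical to it (median 90.2%). The copies of RNY4 were read more deeply, with a median of 198 unique reads (range 36 to 1324) against 81.5 (24 to 588), and held 78.9% of the uridylated reads. Their U+ fractions overlapped over most of the range, with a median of 67.9% for RNY4 and 72.2% for RNY3. Pooled over reads the order turned, 67.3% (66.3 to 68.3%) for RNY4 and 59.2% (57.3 to 61.0%) for RNY3. It turned as well among windows with at least 100 unique reads, where the medians were 65.7% over 24 copies of RNY4 and 46.8% over 6 copies of RNY3. No order of the families can be read from these values.

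In the 3′ arm, the copies with a window matched the canonical gene at more positions than the other annotated copies did. In copies closest to RNY4, the last 30 nt before the T run matched the canonical gene at a median of 93.3% of positions, against 86.7% in the 83 other annotated copies of RNY4. In copies closest to RNY3 this was 96.7%, against 90% in 382 other copies. At the first 30 nt the medians were 90 and 90% for RNY4, and 90 and 86.7% for RNY3. The last 20 nt before the T run were unchanged in 10 of the 27 copies of RNY4 (37.04%), against 6 of 83 other copies (7.23%), and in 15 of the 20 copies of RNY3 (75%), against 47 of 382 (12.3%). The unchanged end of RNY4 was found within 25 nt of 10 of all 1533 windows (0.652%), and that of RNY3 within 25 nt of 15 (0.978%). These numbers equal those of the copies that kept the end, but for RNY4 the sets differ. In ENSG00000223249, which kept its end unchanged, that end runs further than 25 nt past the window. The numbers include Y RNA windows. The shares are therefore no separate background. The end of RNY4 reads, in the sense strand:
RNY4 arm: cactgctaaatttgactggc
These are counts without a test. The members were taken by their symbol, but their listing rests on unique mapping, which depends on sequence. The copies with a window and the others are thus not free of selection by sequence.

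The sequence that followed the annotated 3′ end was rich in A. At least 10 of the next 20 nt were A in 41 of the 47 copies (87.2%), with a median of 13, and in 363 of 465 other annotated copies of RNY3 and RNY4 (78.1%), also with a median of 13. The canonical genes had 1 to 7 A there. The letters TATAA, read on the sense strand, occurred in the 40 nt before the 5′ end of 5 of the 47 copies (10.6%) and of 30 of the 465 others (6.45%), and before RNY3, RNY4 and RNY5. An A-rich 3′ flank is known for copies made by retroposition. Both shares were of similar size in the copies with a window and in the others, and the difference was not tested.

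The predicted fold kept the pairing of the ends in most copies. Between the first 30 and the last 40 nt, the structure of lowest free energy held a median of 18 base pairs (range 0 to 26) and at least 10 in 42 of the 47, against 20 in RNY3 and in RNY4. The pairing was 0 in RNY4P31 and in ENSG00000222493, whose U+ fractions were 84.3 and 50.2%. The free energy, from -34.0 to -11.2 kcal/mol, had a Spearman rho of -0.08 with the U+ fraction over the 47 windows. No clear order of the fractions with the predicted fold was seen.

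The median U+ fraction was lower at each longer encoded T run, with ranges that overlapped. The run was counted from the first T among the first 3 of the last 5 annotated bases, on into the genome. It was 0 nt in 3 copies, 1 nt in 12, 2 nt in 17, 3 nt in 9 and 4 nt or more in 6, and the 6 were all copies of RNY4. A run of 4 nt or more was kept by 6 of 27 copies of RNY4 (22.2%), against 17 of 83 other copies of RNY4 (20.5%), and by 0 of 20 copies of RNY3, against 14 of 382 (3.66%). The median U+ fraction was 84.3% at a run of 0 nt (range 44.6 to 92.4%), 79.7% at 1 nt (25.3 to 98.2%), 72.9% at 2 nt (41.1 to 91.7%), 59.2% at 3 nt (34.4 to 83.2%) and 58.4% at 4 nt or more (42.1 to 65.9%). No copy with a run of 4 nt or more reached the median of all windows, 70.2%.

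The medians had the same order within each family. Copies of RNY4 had a median of 74.7% with a run of 0 to 2 nt (16 windows) and 58.5% with 3 nt or more (11 windows). Copies of RNY3 had 78.3% (16 windows) and 49.6% (4 windows). Over all 47 windows the Spearman rho of run and U+ fraction was -0.43 and Pearson's r was -0.39, given as a description because the windows share their libraries. The rho was -0.57 among the copies of RNY4 and -0.37 among those of RNY3. Longer runs also went with more unique reads, with a rho of 0.35, and the median was 116 unique reads at 0 to 2 nt and 224 at 3 nt or more. In the 30 windows that held at least 100 unique reads, the medians were 70.5 and 56.9% and the rho was -0.46. By the authors' rule a T that matches the genome is no tail, but the study's stated limit for RNA polymerase III transcripts, given above, bears directly on this order. The study adds that the oligo(U) of such transcripts rarely ran past the encoded Us. A U+ call needs at least 4 terminal Ts that the genome does not match, with 1 mismatch allowed, and 32 of the 47 copies encode 0 to 2. The pooled counts do not give the length of any tail, and the part of added and encoded Us in the order was not tested.

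**Figure D2:**
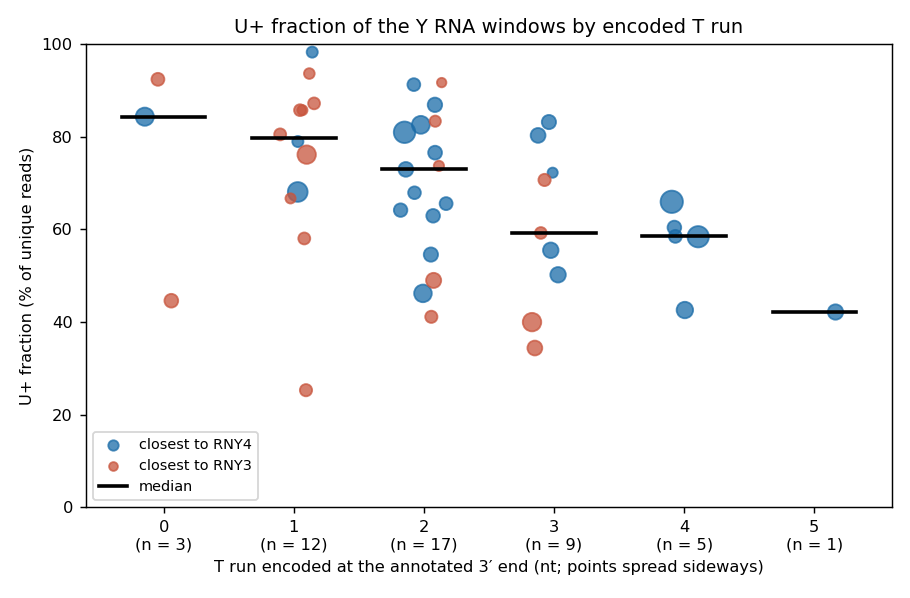
U+ fraction of the 47 Y RNA windows (vertical axis, percent of unique reads) against the length of the T run encoded at the annotated 3′ end (horizontal axis, nt); points are windows, larger with more unique reads, and bars are medians. The medians step down from 84.3% without a T to 58.5% at 4 nt and 42.1% in RNY4P11, the only copy with 5 nt.

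The sequences printed above show single cases. RNY4P11, which ends in the same run of 5 T as RNY4, had a U+ fraction of 42.1%. ENSG00000200141 has the same 20 nt arm and ends in 1 T, and had 68.1% (64.7 to 71.2%). RNY4P31, which lacks the last bases of the arm and the run, had 84.3%. Exceptions were present in both families. ENSG00000252522, a copy of RNY3 with no T, had 70 of 157 (44.6%), and ENSG00000200742, also a copy of RNY3, with 1 T had 25.3%. Among copies of RNY4, RNY4P25 with 2 T had 46.2%. RNY4P3 with 3 T had 80.3%, and ENSG00000223220 with 3 T had 153 of 184 (83.2%). These exceptions were named after their values had been seen, ENSG00000252522 for being the lowest without a T.

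The annotated 3′ end lay inside the window in 29 of the 47 (61.7%), and at most 36 nt past it in the others. It lay inside in 25 of 28 windows on the minus strand and in 4 of 19 on the plus strand. Counted from the 5′ side of the window, its median position was 39.5 nt on the minus strand (range 5 to 54) and 60 nt on the plus strand (42 to 86). The other short RNAs split by strand too: the end of 5S rRNA copies lay inside 25 of 26 windows on the minus and 4 of 17 on the plus strand, and that of U6 snRNA copies inside 19 of 21 and 6 of 11. The place of a Y RNA end in its window therefore cannot be read without the strand, and the cause of the split was not tested.

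**Figure D3:**
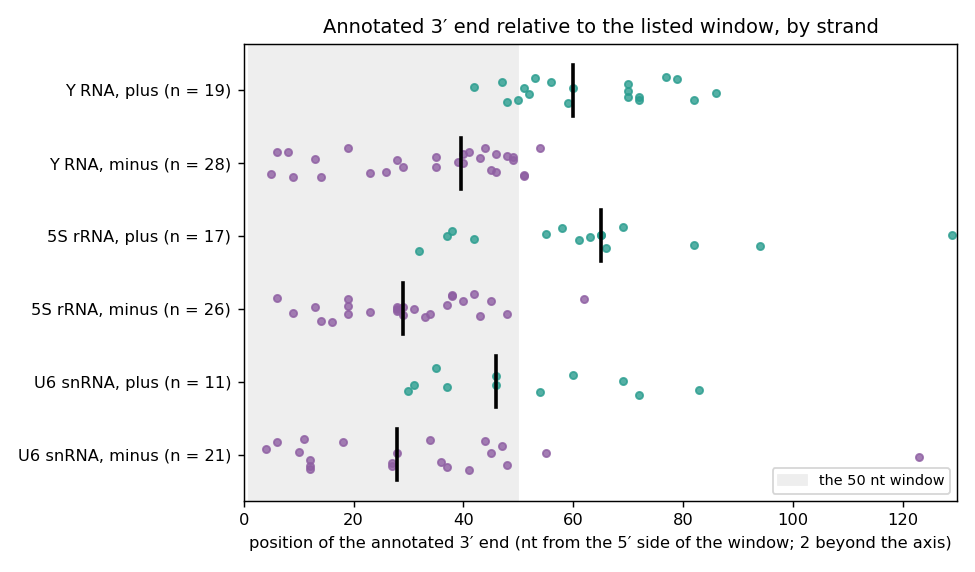
Position of the annotated 3′ end (horizontal axis, nt from the 5′ side of the 50 nt window, shaded) in windows of Y RNA, 5S rRNA and U6 snRNA, by strand; points are windows and bars are medians. In Y RNA the ends have a median of 60 nt on the plus strand, past the window, and of 39.5 nt on the minus strand, inside it.

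The U+ fractions of the Y RNA windows also differed in median between the strands, and this difference was not tested. The median was 58.4% over 19 windows on the plus strand (range 25.3 to 87.2%, median of 223 unique reads) and 74.7% over 28 on the minus strand (41.1 to 98.2%, median of 118 unique reads). Over all windows the strands were at 69.4 and 70.8%, in 5S rRNA at 78.0 and 83.0% and in U6 snRNA at 92.1 and 92.6%. The rho of encoded T run and U+ fraction was -0.20 on the plus and -0.53 on the minus strand. The median was 68.1% where the end lay inside the window and 67.6% where it lay past it. The position of the end in nt, however, had a rho of -0.35 with the U+ fraction over the 47 windows. Position and strand go together, and their parts were not tested.

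Only reads that map to 1 place were counted, and the copies differ in how soon a 3′ fragment becomes unique. For a fragment that ends just before the encoded T run, the shortest length that occurs once in the genome had a median of 26 nt (range 16 to 44) over the 47 copies. It was 91 nt for RNY3, 71 nt for RNY4, 42 nt for RNY1 and 16 nt for RNY5. The run so counted was only 2 nt in RNY5, against 4 nt in RNY1 and RNY3 and 5 nt in RNY4. The value for RNY5 is therefore not measured at a like place. The last 25 nt before the run occurred 52 times in the genome for RNY3 and for the 10 copies that share them with it, 34 times for RNY1 and 12 times for RNY4. Shorter fragments of RNY3 or RNY4 that end at this place are thus not unique, and the part of this in the missing canonical windows was not tested.

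In 19 of the 47 windows at least 1 further genomic match of 45 nt or more with at most 2 differences was found, and up to 32 in ENSG00000202382. Reads of such windows are uncertain in their origin where a read carries an error or a difference of the cell line. Their median U+ fraction was 58.4%, against 69.4% in the 28 windows without such a match, with ranges of 25.3 to 92.4% and 42.1 to 98.2% that overlapped. Such a match was more common on the plus strand, where the median was 58.4%, than on the minus strand, where it was 74.7%. The parts of strand and of near-identical matches were not tested. The length at which a fragment becomes unique had a rho of 0.04 with the U+ fraction.

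Most copies lay within protein-coding genes. A host gene contained the window on the same strand in 18 copies (38.3%) and on the opposite strand in 12 (25.5%), and 17 lay outside (36.2%). Among the 465 other copies these shares were 26.5, 26.5 and 47.1%. Only 1 window overlapped an exon of its host, ENSG00000207383, antisense to POLR1B, with 22 of 24 reads uridylated (91.7%, 74.2 to 97.7%). The median U+ fraction was 74.9% on the host's strand (range 25.3 to 93.6%), 59.4% on the opposite strand (41.1 to 91.7%) and 67.9% outside (42.1 to 98.2%). The ranges overlapped over most of their length. For a copy on its host's strand, its own transcript and a fragment of the host's intron cannot be told apart from these counts.

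Deeper Y RNA windows had, on the whole, lower U+ fractions. The Spearman rho of unique reads and U+ fraction was -0.37 over 47 windows, and Pearson's r with the log10 of unique reads was -0.29. The rho was -0.17 over the 30 windows with at least 100 unique reads. It was -0.21 among the copies of RNY4 and -0.54 among those of RNY3, and -0.37 over all 1533 windows. The relation in the Y RNA windows was therefore like that of the whole table in size, and it was weaker without the shallow windows. Under the authors' posterior rule, a shallow window needs a higher fraction than a deep one to be kept. The part of this in the relation was not tested.

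**Figure D4:**
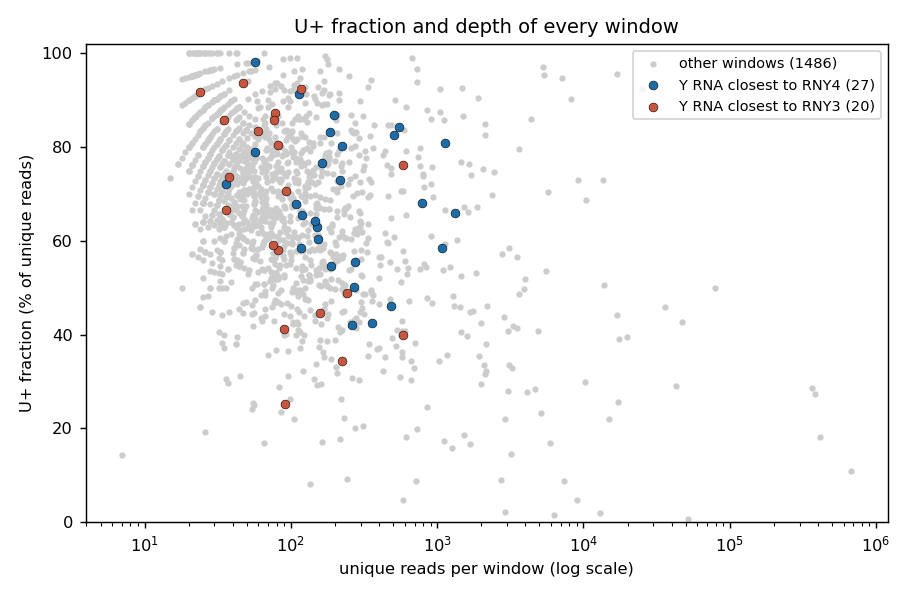
U+ fraction (vertical axis, percent of unique reads) against unique reads per window (horizontal axis, log scale) for all 1533 windows, with the 47 Y RNA windows coloured by the closest canonical gene. The Y RNA windows range from 24 to 1324 unique reads and lie within the cloud of the other windows.

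Set beside other RNAs made by RNA polymerase III, the Y RNA windows took a middle place. The median U+ fraction was 92.2% in 32 windows of genes named for U6 snRNA, the catalytic RNA of the spliceosome. It was 81.0% in 43 windows of the 5S rRNA class, named for the small RNA of the large ribosomal subunit. It was 40.8% in 46 windows of tRNA and 28.0% in 4 windows of vault RNA, the RNA of the vault particle. The 6 windows of 7SL-related genes, copies of the RNA of the signal recognition particle, ranged from 0.719 to 94.1%, the 2 windows related to 7SK from 16.7 to 80.0%, and the RNAs of RNase P and RNase MRP were at 46.2 and 67.2%. These differences were not tested. Functional genes and pseudogenes were not separated within the classes set beside Y RNA. Depth differed as well, with medians of 91.5 unique reads for U6, 235 for 5S rRNA, 830 for tRNA and 371560 for vault RNA. With at least 100 unique reads the medians were 64.8% for Y RNA (30 windows), 88.6% for U6 (16), 79.7% for 5S rRNA (27) and 39.8% for tRNA (39).

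**Figure D5:**
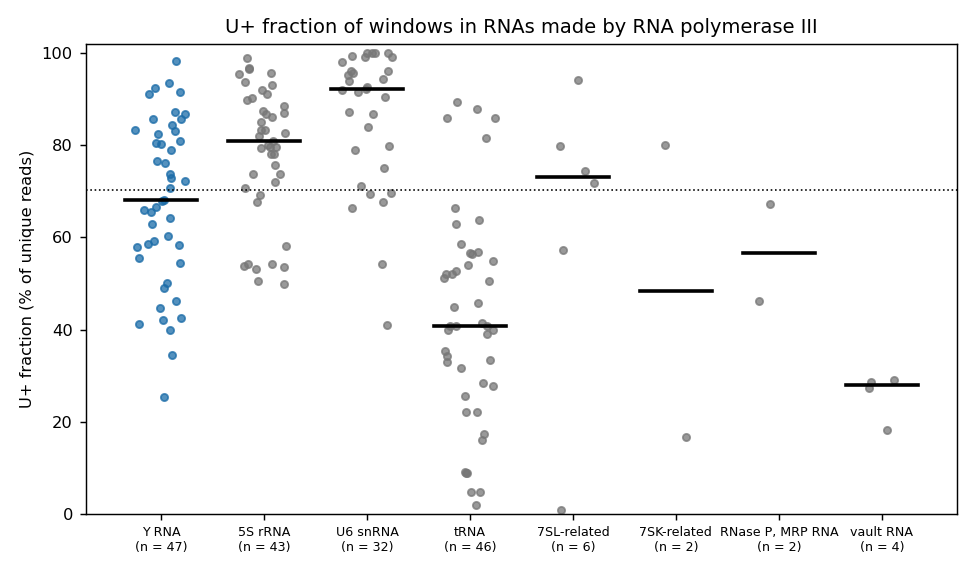
U+ fraction of each window (vertical axis, percent of unique reads) in classes of RNA whose functional genes RNA polymerase III transcribes. Points are windows, bars are class medians and the dotted line is the median of all 1533 windows, 70.2%. The Y RNA windows have a median of 68.1%, between tRNA at 40.8% and 5S rRNA at 81.0%.

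The share of Y RNA in the class depended on what was counted. The 47 windows made up 77.0% of the 61 misc_RNA windows, 2.56% of the uridylated reads of the class (2.51 to 2.62%) and 0.9501% of its unique reads. Without the 4 vault RNA windows they held 63.7% of the uridylated reads. In the whole table they held 1.03% of the uridylated reads (1.005 to 1.05%).

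No window was listed for the mRNA of 13 proteins that bind, modify or degrade Y RNAs or other tailed RNAs, among them RO60 and SSB, which encode the Ro60 and La proteins, the uridylyltransferases TUT4 and TUT7, the poly(A) ribonuclease PARN and DIS3L2 itself. An older symbol was searched for 4 of them. Such a window would have had to pass the authors' selection, so their expression cannot be read from this.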

How the data were processed

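Per the methods, reads of the 3 CLIP libraries were mapped to GRCh37/hg19 with Segemehl, unmapped reads were trimmed of 3′ T and mapped again, and unique reads with a terminal run of at least 4 T not matched by the genome, 1 mismatch allowed, were called uridylated. Windows of 50 nt with at least 20 reads were kept by a posterior probability. The deposited table departs from this: 11 of its 1533 windows had under 20 unique reads, and 49 had a pooled posterior under 0.95. The processing notes also name Subread, with no role. The deposited counts of unique and of uridylated reads are raw and pooled by the authors over the libraries. Each window got 1 class by a fixed priority, in which misc_RNA follows tRNA, miRNA, snRNA and 5S rRNA.

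From these counts, U+ fractions and 95% Wilson intervals were computed (scipy 1.17.1). Window starts were read as 1-based. All 1533 windows lay on chromosomes of the genome used and 0 passed an end. GENCODE release 44, lifted to GRCh37, gave the genes, and GRCh37 the sequences. All 47 genes were in it. The closest canonical gene was that with the best local alignment (Biopython 1.88; match 2, mismatch -3, gap opening -5, extension -2), and a tie or a difference in identity under 5 points would have been unassigned. Identity was counted over the canonical length. The whole sequence of RNY3 is not reported here. Folds came from ViennaRNA 2.7.2 and near-identical copies from blastn 2.17.0.

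The windows named are the 10 with most uridylated reads, the 3 highest and 3 lowest U+ fractions with at least 100 unique reads, those under a pooled posterior of 0.95, and others said to be chosen later or named for a count. The members and lists were chosen with earlier results of these data known. The T run, strand, flank, fold and fragment measures were added after the values had been seen. Interval and alignment calls were tested on simulated data.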

Additional observations from a re-analysis of the deposited data

How the results depend on the processing

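The counts are pooled, so leaving out 1 library could not be done. No paired analysis was possible because the libraries form 1 group and their counts were not used singly. The median U+ fraction of the Y RNA windows stayed between 64.8 and 69.4% and the pooled fraction between 64.9 and 65.7% under the alternatives tried: at least 100 unique reads, a pooled posterior of at least 0.95, and, for the median, 1 window per gene or no near-identical copies, or, for the pooled fraction, no deepest window. The number of windows with an interval above 50% was 31 with Clopper-Pearson intervals or 99% confidence, and 19 in the 30 windows that held at least 100 unique reads, where fewer windows were counted. The share of the uridylated reads of misc_RNA was 2.56%, 63.7% without the vault RNA windows, 0.9501% as a share of unique reads and 77.0% as a share of windows. The annotated 3′ end lay inside 61.7% of windows, 63.8% with 0-based starts, and 80.9% with 10 nt past the window allowed. Global alignment also gave 27 and 20 copies per family, and the window in place of the transcript gave 23 and 17, with the rest unassigned. The rho of depth and U+ fraction was -0.17 with at least 100 unique reads, against -0.37, and -0.42 without the pair of windows farthest from the median depth. The rho of encoded T run and U+ fraction, -0.43, was -0.57 among copies of RNY4 and -0.20 on the plus strand, where only 19 windows remained, and -0.37 to -0.53 under the other alternatives, which were chosen after seeing the data. It was -0.50 without the window under the pooled posterior and -0.41 without the run of 5 nt. Depth limits single windows, as 17 of the 47 had under 100 unique reads.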
